A study of Mus musculus with 16 samples.

Results

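Most of the genes described here encode the signaling chain that carries a Toll-like receptor signal to the transcription factor NF-κB, together with NOD-like receptors of the inflammasome branch and regulators of cell death. They were taken by name alone, as every symbol of the deposited peak table that begins with Nfkb, Tlr, Irak, Traf, Tnfaip, Tnip, Ikbk, Ticam, Ripk, Tab, Tank, Nlr, Nod, Birc, Casp, Bcl, Card, Mcl1 or Cflar, or is Rel. The rule reads symbols and no measured value, but it was drawn up with earlier results of these data known. The rule found 69 of 4943 gene identifiers, under 65 symbols, and 138 of 7069 m6A peaks. By name it also took Bcl7b, Bcl9, Bcl9l and Bcl11b, which have other roles and stay in the counts. The study profiled thioglycolate-elicited peritoneal macrophages (PMs) of sex-matched C57BL/6 littermates aged 6 to 8 weeks by m6A-methylated RNA immunoprecipitation sequencing (MeRIP-seq), in which RNA fragments captured by an m6A antibody (IP) are sequenced beside the uncaptured fragments (input). Wild-type (WT) PMs and PMs lacking the adapter protein ADAP (Adap-/-, a germline knockout present in every cell of the animal) were either left unstimulated (mock) or exposed to lipopolysaccharide (LPS), the outer-membrane glycolipid of Gram-negative bacteria, at 1 μg/ml for 6 h. Each of the 4 groups had 2 input and 2 IP libraries. Whether the 2 libraries of a group came from separate animals was not stated, so the p-values measure only the spread between libraries, which may be technical.

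Toll-like receptors bind microbial products and recruit adaptors that activate IRAK kinases and TRAF ubiquitin ligases. These lead to the IκB kinases, which mark IκB proteins for destruction and so free NF-κB dimers to enter the nucleus. Many NF-κB targets are themselves brakes on the pathway, among them IκBα and A20, while others feed the NLRP3 inflammasome or hold back apoptosis through IAP, FLIP and BCL2-family proteins. Macrophages are the classical cells in which this chain responds to LPS.

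Input reads in peaks were summed per gene, and the level of a gene is given in CPM, its share of a library's reads after TMM scaling over the input libraries. Libraries held 2121313 to 4325961 input reads and 5728590 to 19030373 IP reads in peaks. All p-values below are from edgeR's quasi-likelihood test with Benjamini-Hochberg adjustment over all genes or peaks tested, and ± is the standard error of a log2 fold change. Fyb1, which encodes ADAP, stood at 244 and 257 CPM in WT mock, 349 and 377 in WT LPS, 46.7 and 36.9 in Adap-/- mock and 41.5 and 35.7 in Adap-/- LPS, and was thus low in both groups labelled as knockout. Of 8 macrophage markers 7 were in the table, with summed levels of 8721 to 10606 CPM. Within that sum, Fcgr1, Cd14 and Mertk rose after LPS in WT by 3.20, 2.08 and 1.6 on the log2 scale. Lyz2 was at -0.68, Cd68 at -0.005, and Csf1r and Adgre1 each at 0.20. In Adap-/-, Fcgr1, Cd14 and Mertk rose by 2.31, 2.18 and 1.04, and Lyz2 was at -0.55. Single markers differed between Adap-/- LPS and WT LPS: Fcgr1 (-1.28 ± 0.17, adjusted p = 2.0e-04) and Mertk (-0.32 ± 0.10, adjusted p = 0.037) were lower and Cd14 (0.49 ± 0.13, adjusted p = 0.019) was higher. None of the markers of B cells, T cells, eosinophils, mast cells or fibroblasts and mesothelium had a peak. The table holds only genes with an m6A peak, so a missing marker does not show that a cell type was absent. Of 9 neutrophil markers 1, Csf3r, was listed, at 123 and 137 CPM in WT mock, 163 and 164 in Adap-/- mock, 306 and 369 in WT LPS and 369 and 388 in Adap-/- LPS, and its part in the results was not tested. In bulk samples, fewer cells that express a gene and less RNA per cell cannot be told apart.

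LPS raised most of these genes in both genotypes. Of 65 members that passed the count filter, 39 were higher and 5 lower in WT LPS than in WT mock at an adjusted p below 0.05 and over 2-fold, against 18.5% of all tested genes higher and 14.8% lower. In Adap-/- PMs 39 were higher and 4 lower, against 16.7% and 12.3% of all genes. The median log2 fold change of the members was 1.53 in WT and 1.26 in Adap-/-, while the median over all genes was -0.03 in both. Higher in both genotypes were 37 members and lower in both were 4. The remaining 4 members, among them Bcl11b, Bcl2a1c and Nlrp1b, had too few input reads to be tested. Scaling by library totals alone, an alternative chosen after seeing the data, moved the median of all genes to -1.11 in WT and -1.08 in Adap-/- and gave 25 members higher and 15 lower in WT and 20 higher and 15 lower in Adap-/-, so the changes are relative to the average gene.

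**Figure D1:**
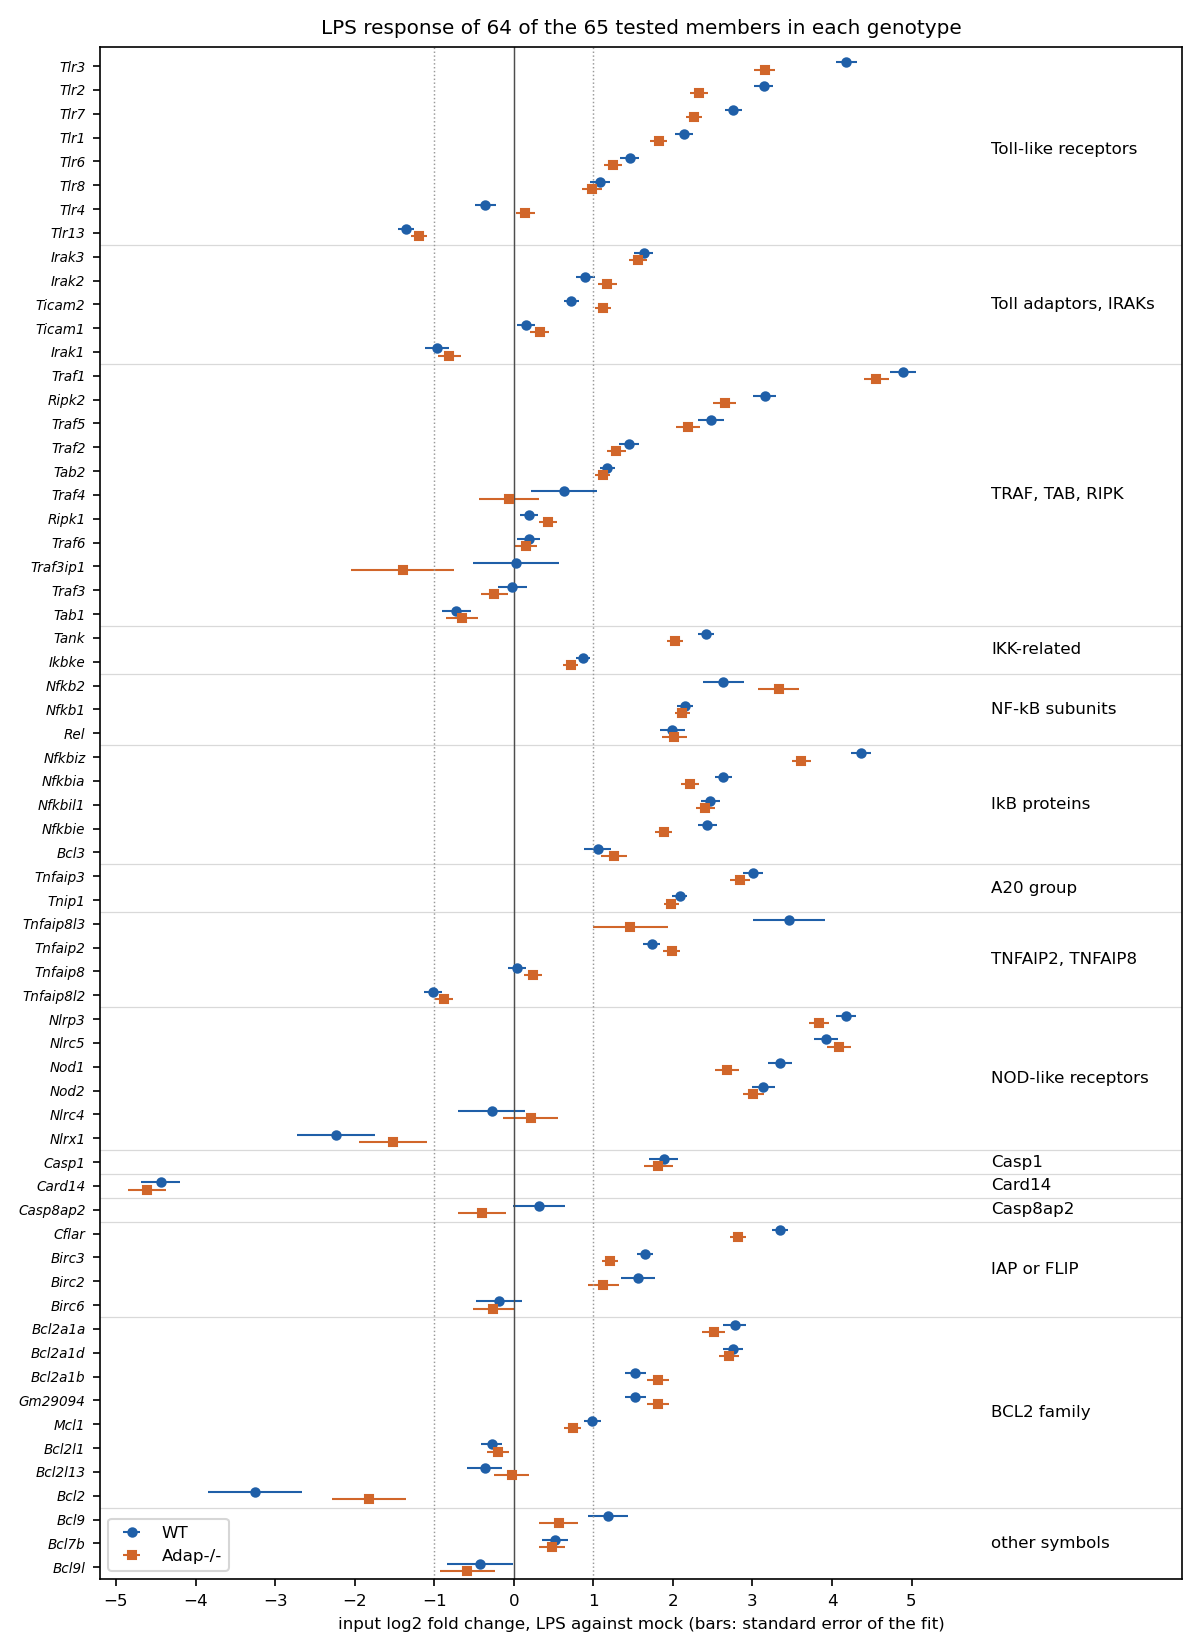
Each row is 1 of 64 of the 65 tested members, grouped by role; the x axis gives the input log2 fold change of LPS against mock, with circles for WT, squares for Adap-/- and bars for the standard error, and dotted lines mark a 2-fold change. In WT, Traf1, Nfkbiz, Nlrp3 and Tlr3 lie farthest to the right and Card14 farthest to the left, while 36 of those shown lie beyond the right dotted line in both genotypes with an adjusted p below 0.05.

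RefSeq promoters (build GRCm38.p6; 250 bases before to 50 after a transcription start) were found for 55 of the 69 members. The κB consensus, the binding motif of NF-κB, searched on both strands, was present in 13 of these 55 genes, against 5.14% of all 27025 genes with a promoter in the table and 7.01% of the genes with a peak. Among the 37 members raised by LPS in both genotypes, 30 matched and 11 (36.7%) held it, while 2 of 25 other matched members did. The interferon-stimulated response element, searched as GAAANNGAAA on both strands, was held by 3 of the 55 members (5.45%) and 3.99% of all genes. A match is only a description of the letters in this window. The 5 promoters below are shown because their genes are described in what follows and because together they show single, overlapping and separate matches; capitals mark the bases that match the κB consensus on either strand.

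The Tlr2 promoter (chr3:83841559-83841858), read along the minus strand with the gene, carries an overlapping pair of matches far from the start and another match close to it:
Tlr2: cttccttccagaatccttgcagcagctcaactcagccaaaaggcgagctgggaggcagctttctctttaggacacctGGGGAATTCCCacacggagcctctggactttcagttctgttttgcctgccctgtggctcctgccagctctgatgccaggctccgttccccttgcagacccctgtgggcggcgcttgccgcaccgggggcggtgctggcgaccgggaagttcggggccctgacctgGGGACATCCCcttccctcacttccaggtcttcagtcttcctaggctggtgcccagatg

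The Tlr3 promoter (chr8:45410331-45410630), read along the minus strand with the gene, holds a single match that runs the same way:
Tlr3: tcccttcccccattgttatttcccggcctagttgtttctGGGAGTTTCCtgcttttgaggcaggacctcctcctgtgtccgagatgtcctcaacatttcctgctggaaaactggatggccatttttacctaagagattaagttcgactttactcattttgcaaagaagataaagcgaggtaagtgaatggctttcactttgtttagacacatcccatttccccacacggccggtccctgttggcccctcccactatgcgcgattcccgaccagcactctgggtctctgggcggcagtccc

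The Nfkbia promoter (chr12:55492598-55492897), read along the minus strand with the gene, holds a single match near the start, which fits the consensus on the opposite strand:
Nfkbia: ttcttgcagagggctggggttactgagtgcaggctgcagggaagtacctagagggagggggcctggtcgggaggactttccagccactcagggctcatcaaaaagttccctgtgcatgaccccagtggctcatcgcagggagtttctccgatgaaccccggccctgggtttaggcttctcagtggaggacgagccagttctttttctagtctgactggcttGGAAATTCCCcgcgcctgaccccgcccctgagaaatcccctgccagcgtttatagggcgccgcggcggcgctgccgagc

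Another RefSeq promoter of Nlrp3 holds no match. The Nlrp3 promoter printed here (chr11:59541319-59541618), read along the plus strand with the gene, holds a single match, which fits the consensus on the opposite strand:
Nlrp3: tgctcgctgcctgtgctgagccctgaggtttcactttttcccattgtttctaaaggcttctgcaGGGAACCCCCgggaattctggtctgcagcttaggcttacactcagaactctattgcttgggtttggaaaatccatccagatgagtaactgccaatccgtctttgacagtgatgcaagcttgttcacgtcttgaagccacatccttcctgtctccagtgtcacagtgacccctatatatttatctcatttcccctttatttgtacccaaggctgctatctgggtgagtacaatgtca

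The Tnip1 promoter (chr11:54962891-54963190), read along the minus strand with the gene, holds 3 overlapping matches that read on both strands:
Tnip1: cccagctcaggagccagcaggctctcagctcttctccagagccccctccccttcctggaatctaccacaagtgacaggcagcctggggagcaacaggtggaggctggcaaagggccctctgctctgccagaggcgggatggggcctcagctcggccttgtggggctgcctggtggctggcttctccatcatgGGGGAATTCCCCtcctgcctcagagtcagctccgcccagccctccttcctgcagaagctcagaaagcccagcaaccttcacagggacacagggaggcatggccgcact

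Among the Toll-like receptors, 6 of 8 were higher after LPS in WT and 5 of 8 in Adap-/-, and 1 was lower in each. Tlr2, the receptor for bacterial lipopeptides whose promoter is printed above, stood at 439 and 427 CPM in WT mock and 3802 and 3834 in WT LPS, a log2 fold change of 3.14 ± 0.12, adjusted p = 1.9e-12. In Adap-/- it went from 700 and 847 to 3884 and 3891 CPM, a log2 fold change of 2.33 ± 0.12, adjusted p = 5.4e-11. All LPS libraries thus lay above all mock libraries, and the Adap-/- mock libraries lay above the WT mock ones. Tlr1 and Tlr6, which pair with Tlr2, rose by 2.14 and 1.46 on the log2 scale in WT and by 1.82 and 1.25 in Adap-/-. The receptors of endosomal RNA moved in opposite directions. Tlr3, the sensor of double-stranded RNA, went from 18.4 and 17.0 CPM in WT mock to 304 and 339 in WT LPS (4.18 ± 0.13, adjusted p = 1.7e-13), and from 23.6 and 21.1 to 196 and 203 in Adap-/- (3.15 ± 0.13, adjusted p = 3.7e-12). Tlr7, a sensor of single-stranded RNA, rose by 2.76 in WT and 2.27 in Adap-/-, and Tlr8 stood at 1.08 in WT and just under the 2-fold limit, 0.99, in Adap-/-. Tlr13, which recognises bacterial ribosomal RNA, fell from 2339 and 2479 to 948 and 931 CPM in WT (-1.36 ± 0.10, adjusted p = 6.9e-09) and from 2088 and 2000 to 870 and 923 in Adap-/- (-1.19 ± 0.10, adjusted p = 3.9e-08). Tlr4, the LPS receptor itself, passed the fold limit in neither genotype: it stood at 53.2 and 51.7 CPM in WT mock, 41.3 and 40.5 in WT LPS, 58.3 and 52.9 in Adap-/- mock and 60.4 and 62.7 in Adap-/- LPS.

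Of the 5 Toll adaptors and IRAK kinases 1 rose in WT and 3 in Adap-/-, and none fell. Irak3, the family member that restrains Toll-like receptor signaling, rose from 147 and 130 to 398 and 459 CPM in WT (1.63 ± 0.12, adjusted p = 3.4e-09) and from 212 and 244 to 639 and 705 in Adap-/- (1.56 ± 0.11, adjusted p = 4.5e-09). Irak2, a signal-carrying kinase, was at 0.90 in WT, within the 2-fold limit, and rose by 1.18 in Adap-/-. Irak1, the kinase upstream of TRAF6, was at -0.96 and -0.81, also within the limit. Ticam2, the bridging adaptor of Tlr4, 1 of whose 3 peaks also lies on another gene, rose by 1.12 in Adap-/- and was at 0.72 in WT, while Ticam1, the adaptor of Tlr3 and Tlr4, was at 0.15 and 0.32. Myd88 and Irak4 were not analysed here.

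Of the 11 TRAF, TAB and RIPK symbols 5 rose in each genotype and none fell. Traf1, a TNF-receptor adaptor, had the largest increase of all tested members: 39.9 and 26.1 CPM in WT mock against 1073 and 895 in WT LPS (4.89 ± 0.16, adjusted p = 3.0e-13), and 42.5 and 46.6 against 996 and 1104 in Adap-/- (4.56 ± 0.16, adjusted p = 6.0e-13). The mock libraries of both genotypes were all far below the LPS libraries. Ripk2, the kinase that relays signals of Nod1 and Nod2, went from 18.4 and 21.6 to 185 and 170 CPM in WT and from 19.4 and 21.6 to 118 and 141 in Adap-/-. Traf5 and Traf2, ubiquitin ligases of TNF-receptor complexes, rose by 2.48 and 1.45 in WT and by 2.19 and 1.29 in Adap-/-, and Tab2, a partner of the kinase TAK1, by 1.17 and 1.12. Traf6, the ubiquitin ligase on the main Toll-like receptor route, was at 0.19 and 0.16, and Traf3 and Ripk1, which direct interferon and death signaling, were at -0.02 and 0.20 in WT. Of the kinases related to the IκB kinases, Ikbke was at 0.87 in WT and 0.71 in Adap-/-, inside the fold limit. Tank, a scaffold of that kinase, rose by 2.42 and 2.03. Tbk1 and Ripk3 were not analysed here.

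All 3 NF-κB subunit genes and all 5 IκB genes rose in both genotypes. Nfkb1, which encodes the p105 precursor of a DNA-binding subunit, went from 103 and 102 to 450 and 456 CPM in WT (2.15 ± 0.10, adjusted p = 1.1e-11) and from 118 and 113 to 488 and 514 in Adap-/- (2.12 ± 0.10, adjusted p = 1.3e-11). Rel, the c-Rel subunit, rose by 1.99 and 2.02, and Nfkb2, at low levels of 4.86 and 4.04 CPM in WT mock, by 2.63 and 3.33. Rela, Relb and Nfkbib were not analysed here. Nfkbia, encoding the classical inhibitor IκBα, stood at 52.4 and 48.2 CPM in WT mock, 323 and 303 in WT LPS, 62.7 and 70.4 in Adap-/- mock and 304 and 315 in Adap-/- LPS, changes of 2.64 ± 0.11, adjusted p = 5.6e-12 in WT and 2.21 ± 0.11, adjusted p = 3.5e-11 in Adap-/-. Nfkbiz, encoding IκBζ, a nuclear member that switches on secondary response genes, stood at 35.8 and 37.7 in WT mock, 780 and 741 in WT LPS, 70.6 and 80.3 in Adap-/- mock and 847 and 1003 in Adap-/- LPS (4.37 ± 0.13, adjusted p = 7.0e-14 in WT and 3.61 ± 0.12, adjusted p = 3.5e-13 in Adap-/-). The 2 genotypes did not overlap in mock or after LPS. Nfkbie (IκBε), Nfkbil1 (an IκB-like protein) and Bcl3 (a nuclear co-factor of p50) rose by 2.43, 2.47 and 1.05 in WT and by 1.88, 2.41 and 1.26 in Adap-/-. The ubiquitin-editing brakes rose as well: Tnfaip3, which encodes A20, from 463 and 415 to 3430 and 3637 CPM in WT and from 568 and 620 to 4031 and 4501 in Adap-/-, and its partner Tnip1 by 2.08 and 1.98. The TNFAIP8-like genes were less uniform. Tnfaip8l2, which encodes the immune brake TIPE2, fell from 368 and 457 to 212 and 195 CPM in WT (-1.02 ± 0.11, adjusted p = 7.8e-07), a call that ended under DESeq2, under RLE scaling and when either WT mock replicate 2 or WT LPS replicate 2 was left out. Tnfaip8l3, a lipid-transfer protein, rose from 0.767 and 1.35 to 10.6 and 13.4 CPM in WT and from 1.31 and 2.18 to 4.80 and 5.10 in Adap-/-, levels that rest on few reads in mock.

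Of 6 tested NOD-like receptors 4 rose and 1 fell in each genotype. Nlrp3, the core of the inflammasome that activates caspase-1, stood at 88.2 and 86.5 CPM in WT mock and 1573 and 1594 in WT LPS (4.18 ± 0.13, adjusted p = 1.2e-13), and at 137 and 165 and 2009 and 2318 in the corresponding Adap-/- groups (3.84 ± 0.12, adjusted p = 3.0e-13). Nlrc5, a transactivator of MHC class I genes, rose from 29.7 and 35.8 to 487 and 512 CPM in WT and from 40.7 and 26.7 to 559 and 584 in Adap-/-. Nod1 and Nod2, the cytosolic sensors of peptidoglycan fragments, rose by 3.35 and 3.14 in WT and by 2.68 and 3.01 in Adap-/-. Nlrx1, a mitochondrial member, fell from 12.5 and 8.08 to 2.8 and 1.45 CPM in WT and from 12.6 and 9.71 to 2.26 and 5.83 in Adap-/-; the Adap-/- call ended without Adap-/- LPS replicate 1. Nlrc4, the sensor partner of NAIP proteins, was at -0.28 in WT and 0.21 in Adap-/- and did not pass. Casp1, the inflammasome's protease, rose from 13.6 and 20.5 to 62.8 and 62.5 CPM in WT and from 17.1 and 15.3 to 56.1 and 58.0 in Adap-/-. Casp4 was not analysed here. Card14, a scaffold protein of the CARMA family, had the largest decrease (-4.44 ± 0.24, adjusted p = 1.3e-10 in WT and -4.61 ± 0.24, adjusted p = 7.6e-11 in Adap-/-), but its only peak also lies on the neighbouring lysosomal gene Sgsh, so that the reads of the pair could not be told apart.

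Among regulators of cell death, 3 of the 4 IAP and FLIP genes rose in each genotype, and of 8 tested BCL2-family symbols 4 rose and 1 fell in each. Cflar, whose product FLIP blocks caspase-8, stood at 69.8 and 66.5 CPM in WT mock, 708 and 681 in WT LPS, 101 and 109 in Adap-/- mock and 728 and 759 in Adap-/- LPS (3.35 ± 0.10, adjusted p = 1.3e-13 in WT and 2.82 ± 0.10, adjusted p = 6.8e-13 in Adap-/-). Birc3 and Birc2, ubiquitin ligases that keep RIPK1 from killing, rose by 1.66 and 1.56 in WT and by 1.21 and 1.12 in Adap-/-. Birc6, a large IAP protein with its only peak on a second gene as well, was at -0.19 and -0.26 and did not pass. Casp8 was not analysed here. In the BCL2 family, the survival genes Bcl2a1a, Bcl2a1d and Bcl2a1b rose by 2.78, 2.76 and 1.53 in WT. These paralogs are near-identical, and reads may have been split among them. The single peak of Bcl2a1d lies on 2 genes and that of Bcl2a1b on 3, among them the predicted gene Gm29094, which the file also lists under the symbol Bcl2a1. Gm29094 therefore has the values of Bcl2a1b and is the fourth of the BCL2-family symbols that rose. Mcl1 went from 1702 and 1843 to 3632 and 3380 CPM in WT and from 1646 and 1665 to 2781 and 2745 in Adap-/-, just inside the 2-fold limit at 0.98 ± 0.11, adjusted p = 6.5e-07 in WT. Bcl2l1, which encodes BCL-XL, was at -0.28 and -0.20 and did not pass. Bcl2 itself fell from 7.93 and 5.39 to 0.932 and 0.361 CPM in WT and from 6.30 and 7.28 to 2.26 and 1.46 in Adap-/-. These levels rest on a 3′ untranslated peak that also lies on another gene, with 30 and 19 reads in WT mock and 3 and 1 in WT LPS, so that the reads of the pair could not be told apart, while the coding peak of Bcl2 alone held 1 read in each WT mock library. Bcl2l11 was not analysed here.

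Without LPS, Adap-/- PMs held more of several of these transcripts than WT PMs. At an adjusted p below 0.05 and any fold, 13 members were higher and 5 lower in Adap-/- mock than in WT mock, 2 of the 5 being Bcl2a1b and Gm29094 with their shared peak; 8.71% of all genes were higher and 8.65% lower. The member median was a log2 fold change of 0.13, against 0.01 over all genes. Nfkbiz had the largest difference, 70.6 and 80.3 CPM in Adap-/- mock against 35.8 and 37.7 in WT mock (1.04 ± 0.13, adjusted p = 1.4e-04). Tlr2 followed at 700 and 847 against 439 and 427 CPM (0.84 ± 0.12, adjusted p = 2.3e-04), then Nlrp3 at 137 and 165 against 88.2 and 86.5 (0.79 ± 0.12, adjusted p = 5.7e-04). In all 3 genes both Adap-/- libraries lay above both WT libraries, which the rule for naming called members required, yet far under the LPS levels. Irak3 was higher by 0.72, Birc3 by 0.72, Cflar by 0.62, Nod2 by 0.62, Nfkbie by 0.62, Tlr1 by 0.50 and Tnfaip3 by 0.44 on the log2 scale, with adjusted p-values from 2.5e-04 to 0.015. Nfkbia, Tlr7 and Ikbke completed the list at 0.40, 0.38 and 0.28. Their 13 products span receptors (Tlr1, Tlr2, Tlr7), cytosolic sensors (Nlrp3, Nod2), the kinase Ikbke, and brakes of the pathway or of cell death (Irak3, Tnfaip3, Nfkbia, Nfkbie, Birc3, Cflar), beside the nuclear regulator Nfkbiz. No NF-κB subunit gene passed: Nfkb1 was at 0.18, Rel at 0.10 and Nfkb2 at -0.33. Lower in Adap-/- mock were Tab1, a partner of TAK1 (-0.57 ± 0.17, adjusted p = 0.032), Tnfaip8l2 (-0.51 ± 0.11, adjusted p = 0.0045), Ticam1 (-0.48 ± 0.12, adjusted p = 0.01) and Bcl2a1b (-0.43 ± 0.13, adjusted p = 0.035). Leaving out Adap-/- mock replicate 2 left 7 higher (Nfkbiz, Tlr2, Nlrp3, Irak3, Birc3, Cflar and Nfkbie) and none lower, and leaving out WT mock replicate 2 left 11 higher and none lower. Scaling by library totals alone gave 18 higher and 2 lower.

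In the LPS groups, 6 of the 65 tested members stood higher in Adap-/- PMs and 5 stood lower, which is near the background of 6.03% and 9.78% of all genes, and the member median was 0.07 against -0.01 over all genes. Of these 11, Irak3, Nlrp3 and Nod2 were higher and Tnfaip8l2 lower in mock as well. Irak3 stood at 639 and 705 CPM in Adap-/- LPS against 398 and 459 in WT LPS (0.65 ± 0.11, adjusted p = 9.2e-04). Tlr4 stood at 60.4 and 62.7 against 41.3 and 40.5 CPM (0.59 ± 0.13, adjusted p = 0.0064), whereas its mock levels overlapped between the genotypes. Nod2 and Nlrp3 were higher by 0.50 and 0.45, Ticam2 by 0.36 and Tnfaip2, a protein of membrane nanotubes, by 0.31. Tlr3 was lower in Adap-/-, at 196 and 203 against 304 and 339 CPM (-0.69 ± 0.10, adjusted p = 4.0e-04). Ripk2 was lower as well, at 118 and 141 against 185 and 170 CPM (-0.46 ± 0.12, adjusted p = 0.014), as were Tnfaip8l3 (-1.26 ± 0.36, adjusted p = 0.025), Tnfaip8l2 (-0.36 ± 0.12, adjusted p = 0.047) and Mcl1 (-0.34 ± 0.11, adjusted p = 0.037). For these members the libraries of the genotypes did not overlap, which the rule for naming called members required, so it is no separate support. The kinase Ripk2 was thus lower while Nod2, the receptor that it serves, was higher. The Ripk2 call, however, ended under DESeq2 and under scaling by library totals alone. The gene Nod1 was at -0.38 with an adjusted p of 0.055. None of the NF-κB subunit, IκB, A20 or IAP genes passed. Irak3, Tlr4 and Tlr3 kept their calls under every alternative run, including each left-out library, while without WT LPS replicate 1 only these 3 members passed and under DESeq2 6 did. Scaling by library totals alone gave 9 higher and 2 lower, with the median of all genes at 0.11.

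**Figure D2:**
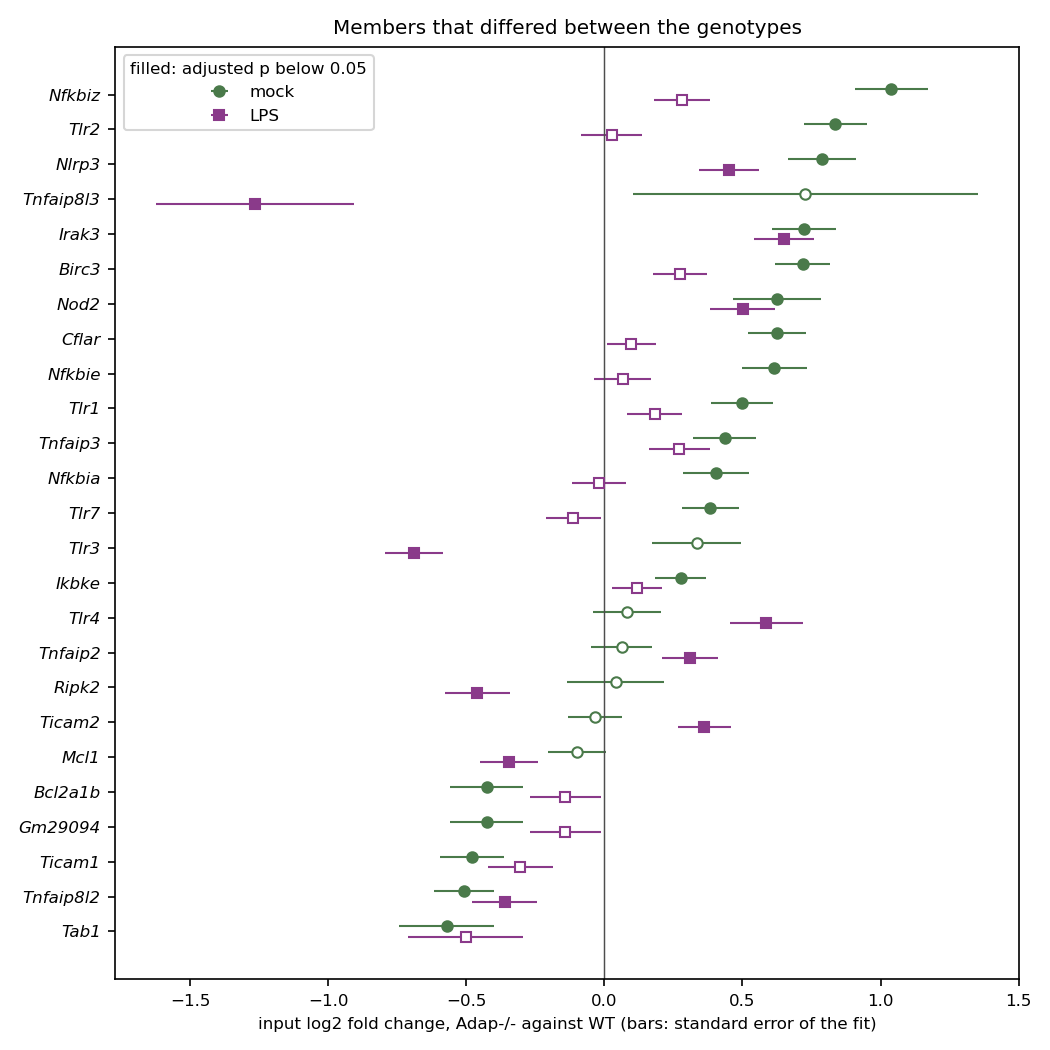
The 25 members that passed the test between genotypes in mock or after LPS, with the input log2 fold change of Adap-/- against WT on the x axis, circles for mock, squares for LPS, filled where the adjusted p was below 0.05, and bars for the standard error. Irak3, Nlrp3 and Nod2 are to the right in both conditions and Tnfaip8l2 to the left in both, while Tlr3 and Tlr4 stand apart after LPS and Nfkbiz and Tlr2 in mock.

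The peaks of 1 gene gave the same picture for most of these differences, although they come from the same libraries and are not independent. All 7 peaks of Nod2 had a higher input level in Adap-/- than in WT, by 1.07- to 1.79-fold in mock and 1.19- to 1.55-fold after LPS. The 3 peaks of Irak3 were higher by 1.54- to 1.62-fold in mock and 1.51- to 1.58-fold after LPS, and those of Nlrp3 by 1.64- to 1.80-fold and 1.33- to 1.41-fold. For Tlr2 the 3 peaks were at 1.70 to 1.77 times WT in mock and 0.999 to 1.03 times after LPS. The 5 peaks of Tlr3 were at 0.563 to 0.680 times WT after LPS, while in mock, at few reads, they ranged from 0.569 to 2.62 times. Cflar was uneven in mock, with 1 of 3 peaks above WT and a range of 0.856 to 1.70 times. Tlr4 and Ripk2 each rest on 1 peak.

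Whether the LPS response itself differed between genotypes was tested as an interaction. Of 65 members none was higher and 3 were lower in response in Adap-/-, against 0.358% and 1.29% of all genes. Tlr3 had the largest difference: its LPS response was -1.02 on the log2 scale (SE 0.19, adjusted p = 0.011) relative to that of WT, from nearby mock levels to a lower LPS level. Tlr2 (-0.81 ± 0.16, adjusted p = 0.017) and Nfkbiz (-0.76 ± 0.17, adjusted p = 0.03) had smaller responses from higher mock levels, their LPS levels being 3884 and 3891 against 3802 and 3834 CPM and 847 and 1003 against 780 and 741 CPM. Of the 37 members raised in both genotypes, 30 had the larger fitted response in WT and 7 in Adap-/-. Bcl2a1b and Gm29094, with their shared peak, are both among the 7. The same count over all LPS-raised genes was not made, so no background stands beside it. The median difference of responses was -0.10 over the 65 members and -0.02 over all genes. Each of these comparisons uses the same mock libraries as the mock comparison above, so the smaller responses and the higher mock levels are not separate observations. When each library was left out in turn 1 to 4 members passed: the Tlr3 call ended only without Adap-/- mock replicate 1, the Tlr2 call without any one of 4 libraries (WT LPS replicate 2, Adap-/- mock replicate 2 and either Adap-/- LPS replicate) and the Nfkbiz call without any one of 6 of the 8 libraries.

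**Figure D3:**
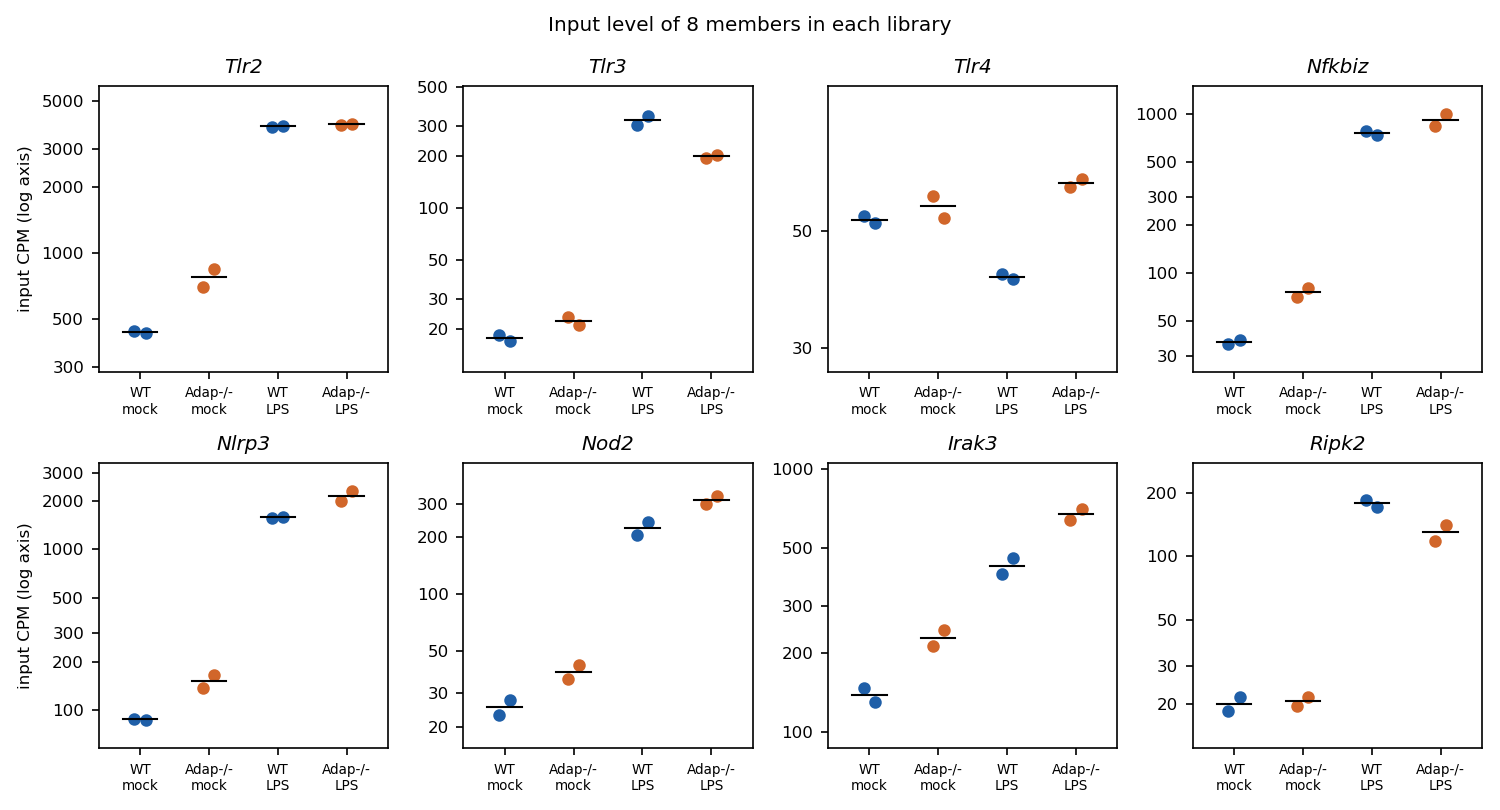
Input CPM on a log axis of 8 members in each library (points; blue WT, orange Adap-/-) with the mean of the 2 libraries as a line. Tlr2 and Nfkbiz differ between genotypes mainly in mock, Tlr3, Tlr4 and Ripk2 after LPS, and Nlrp3, Nod2 and Irak3 in both.

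The m6A peaks of these genes lay mostly in coding sequence and at stop codons. Of 138 member peaks 39.9% were annotated to coding sequence, 33.3% to a stop codon, 15.9% to the 3′ untranslated region and 9.42% to a start codon, against 32.2%, 33.9%, 16.1% and 13.6% of all peaks. Members carried more peaks per gene than the average gene: 27.5% had 3 or more, against 14.5% of all genes, and Nod2 had the most, 7. Capture is given as the ratio of IP CPM to input CPM on a peak, TMM-scaled over all 16 libraries, so that 1 (log2 0) stands for the average peak. The median log2 ratio over the member peaks was 0.18 in WT mock, -0.28 in WT LPS, 0.04 in Adap-/- mock and -0.12 in Adap-/- LPS, while the median over all peaks lay between 0.04 and 0.09. Peaks of inducible members within 1 gene could differ in capture: in WT LPS the stop-codon peak of Tlr2 (chr3:83743653-83744178, GRCm39) had ratios of 1.40 and 1.56, and its coding peak at chr3:83744253-83744528 ratios of 0.53 and 0.52.

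Between genotypes after LPS, no member peak passed an adjusted p below 0.05 (edgeR; 1 peak, or 0.0142%, of all 7058 tested did), and none did under DESeq2. At an unadjusted p below 0.05 and over 2-fold, 2 member peaks were higher and 2 lower in Adap-/- LPS, against 1.32% and 2.82% of all peaks, which is close to the background. The lowest p belonged to a peak of Cflar (chr1:58761749-58761899), with ratios of 0.09 and 0.21 in Adap-/- LPS and 0.80 and 0.77 in WT LPS, a log2 change of -2.32 ± 0.69, unadjusted p = 0.0062. It was followed among the lower peaks by a 3′ untranslated peak of Tab1 (chr15:80045828-80045903, 10 input reads on average, -2.62 ± 1.08, unadjusted p = 0.033) and a peak of the chromatin-remodelling gene Bcl7b (chr5:135210123-135210323, -0.47 ± 0.25, unadjusted p = 0.08). On the higher side stood a stop-codon peak of Ticam2 (chr18:46693107-46693207), with ratios of 0.80 and 0.92 against 0.45 and 0.50 (0.85 ± 0.26, unadjusted p = 0.0071). The other stop-codon peak of Ticam2 (chr18:46693282-46693757) was at 0.23 ± 0.26 (unadjusted p = 0.39) and its 3′ untranslated peak at -0.41 ± 0.38 (unadjusted p = 0.31). Also higher were a coding peak of Ticam1 (chr17:56578318-56578543) with 1.29 and 1.03 against 0.64 and 0.68 (0.83 ± 0.29, unadjusted p = 0.015) and another 3′ untranslated peak of Tab1 (chr15:80044803-80044903) with 2.32 and 1.89 against 0.83 and 0.81 (1.35 ± 0.49, unadjusted p = 0.017). The ratios of the Cflar, Bcl7b and Ticam1 peaks, of the Ticam2 peak at chr18:46693107-46693207 and of the higher Tab1 peak did not overlap between the genotypes. These peaks were picked for their low p, so the lack of overlap is no separate support. With a spread between replicate peaks of 30.6% (biological coefficient of variation), against 8.82% for input genes, the Cflar change had an adjusted p of 0.52, so that a change of that size on a single peak did not pass here. Without WT LPS replicate 1, or without Adap-/- LPS replicate 1, no member peak was higher and 1 was lower at the unadjusted threshold.

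In mock, no member peak passed between genotypes by edgeR, as for 0.0% of all peaks, and none of the members did under DESeq2. At the unadjusted threshold 2 member peaks were higher and 1 lower in Adap-/-, against 0.68% and 0.595% of all peaks. These counts became 6 and 8 without WT mock replicate 2, 3 and 0 without WT mock replicate 1, 4 and 6 without Adap-/- mock replicate 1 and 1 and 1 without Adap-/- mock replicate 2, and the member median moved from -0.07 to between -0.29 and 0.21. The start-codon peak of Nod2 (chr8:89379589-89387171) had ratios of 2.77 and 3.54 in Adap-/- mock, 1.38 and 1.11 in WT mock, 2.2 and 2.81 in WT LPS and 3.03 and 2.65 in Adap-/- LPS (1.35 ± 0.37, unadjusted p = 0.0035); the WT mock libraries alone were low. A coding peak of Nod1 (chr6:54916812-54920291, 1.17 ± 0.51, unadjusted p = 0.041) and the start-codon peak of Tlr1 (chr5:65084246-65084546, 0.60 ± 0.31, unadjusted p = 0.082) came next on the higher side. The lower side held peaks of Tlr8 (chrX:166025966-166026266, -0.90 ± 0.32, unadjusted p = 0.018, and chrX:166025691-166025941, -0.88 ± 0.33, unadjusted p = 0.021) and of Tlr3 (chr8:45850976-45851126, -2.54 ± 0.92, unadjusted p = 0.018).

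LPS against mock gave no called member peak by edgeR in either genotype, and 0.0% of all peaks passed in both. At the unadjusted threshold 2 member peaks were higher and 10 lower in WT LPS, against 2.69% and 5.13% of all peaks, and 0 higher and 5 lower in Adap-/- LPS, against 2.44% and 4.56%. The leading peaks in both genotypes were a neighbouring pair at the stop codon of Nfkbil1. The first (chr17:35439150-35439350) had ratios of 2.42 and 1.02 in WT mock, 0.30 and 0.33 in WT LPS, 1.52 and 1.20 in Adap-/- mock and 0.29 and 0.43 in Adap-/- LPS (-2.31 ± 0.35, unadjusted p = 3.4e-05 in WT and -1.93 ± 0.35, unadjusted p = 1.6e-04 in Adap-/-). The second (chr17:35439500-35439775) had 2.26 and 1.33, 0.40 and 0.52, 1.05 and 2.29 and 0.47 and 0.52 in the same order (-1.98 ± 0.43, unadjusted p = 6.6e-04 and -1.73 ± 0.42, unadjusted p = 0.0018). Every LPS library lay below every mock library at both, and both passed in both genotypes under DESeq2. As the pair was picked for its low p, the lack of overlap is no separate support. Other peaks of lowest p were the start-codon and stop-codon peaks of Nod2 (1.03 ± 0.35, unadjusted p = 0.012 and -1.53 ± 0.56, unadjusted p = 0.019), a coding peak of Tlr13 (0.63 ± 0.23, unadjusted p = 0.019) and the Card14 and Sgsh peak (1.49 ± 0.61, unadjusted p = 0.033) in WT, and in Adap-/- peaks of Ticam1 (0.99 ± 0.29, unadjusted p = 0.006), Tlr8 (0.95 ± 0.33, unadjusted p = 0.014), Tlr13 (0.71 ± 0.28, unadjusted p = 0.028) and Tab1 (-3.48 ± 1.08, unadjusted p = 0.008).

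The 2 IP libraries of each mock group differed in how much they held of the inducible members. Over the 79 peaks of the 37 members raised by LPS, the summed level was 9634 CPM in WT mock IP replicate 1 and 5217 in replicate 2, while the inputs were at 6360 and 6622. In Adap-/- mock it was 6166 CPM in IP replicate 1 and 11077 in replicate 2, with inputs at 7462 and 8060. After LPS the IP libraries held 24498 and 25698 CPM in WT and 31766 and 31742 in Adap-/-, under inputs of 34676 and 32931, and 34715 and 36313. Without WT mock replicate 1 the WT comparison gave 2 member peaks higher and 2 lower at the unadjusted threshold, and the member median moved from -0.25 to 0.02. Without WT mock replicate 2 it gave 4 higher and 36 lower, 3 of which passed the adjusted test, while leaving out either WT LPS replicate gave 1 higher and 2 or 3 lower. In Adap-/- the median was 0.03 without mock replicate 2 and -0.23, with 3 peaks higher and 11 lower, without replicate 1. The sign of the member median after LPS thus depended on which mock replicate was used.

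**Figure D4:**
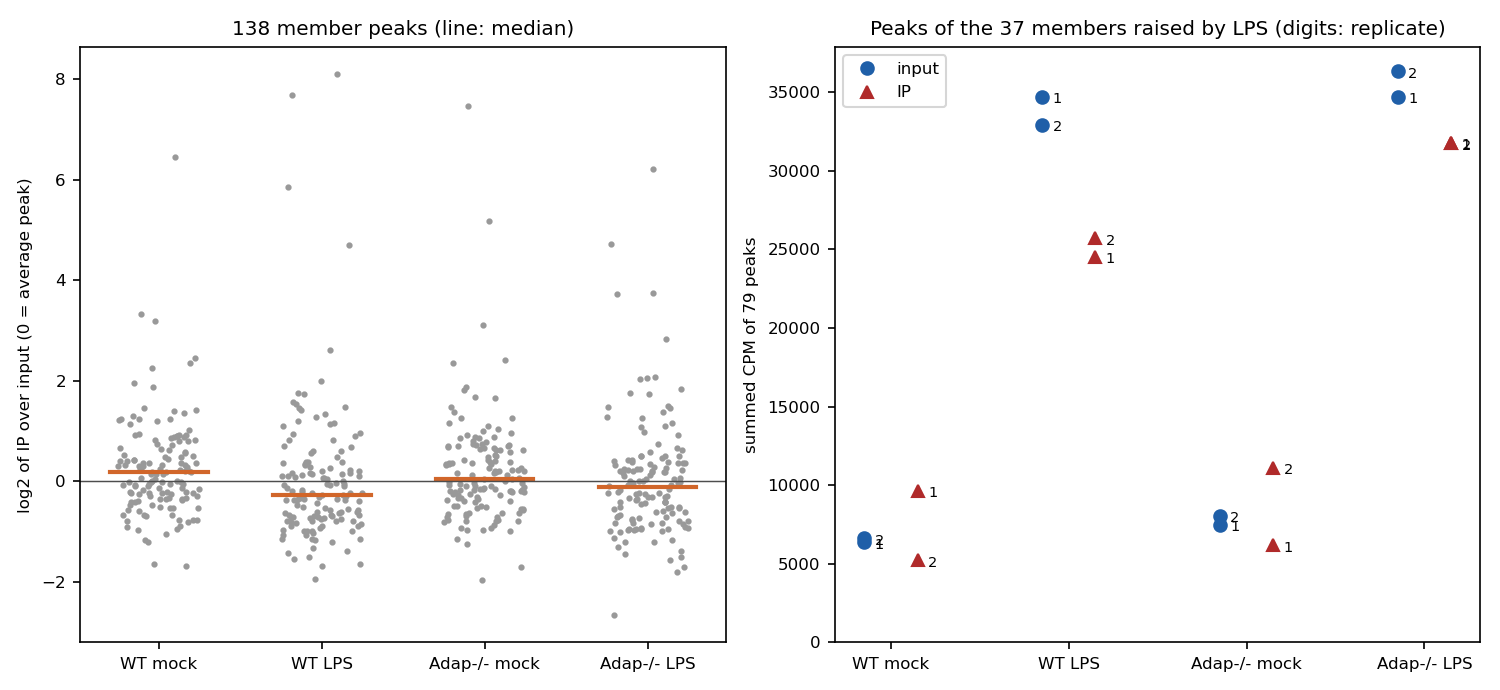
Left, the log2 ratio of IP over input for each of the 138 member peaks in each group, with the median as a line and 0 as the average peak. Right, the summed CPM of the 79 peaks of the 37 LPS-raised members in every input (circles) and IP (triangles) library, where IP replicate 1 of WT mock (9634) and IP replicate 2 of Adap-/- mock (11077) stand above the other mock libraries.

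Other genes of the pathway, from a list of 47 that the naming rule does not take, gave 26 with a peak, all of them tested. In WT 12 of the 26 were higher and 2 lower after LPS, against 18.5% and 14.8% of all genes, and in Adap-/- 10 were higher and 1 lower, against 16.7% and 12.3%. Cd40, the co-stimulatory TNF-family receptor, rose most, from 54.2 and 74.1 to 6324 and 5873 CPM in WT and from 82.4 and 83.7 to 4282 and 4486 in Adap-/-; its response was smaller in Adap-/- (-0.85 ± 0.19, adjusted p = 0.035), the single interaction call in the list. Zbp1 and Mlkl, the sensor and the executor of necroptosis, rose by 4.95 and 3.67 in WT and by 4.86 and 4.0 in Adap-/-. Pycard, the inflammasome adaptor ASC, fell by 1.65 on the log2 scale in WT, from 15.4 and 23.7 to 5.28 and 7.23 CPM. In Adap-/- it was at -0.95 (adjusted p = 0.026), within the fold limit, and its interaction did not pass (adjusted p = 0.61). Between genotypes after LPS, 2 were higher and 5 lower in Adap-/-, against 6.03% and 9.78% of all genes. Cd14, the LPS co-receptor that serves Tlr4, was higher, at 2711 and 3376 against 2346 and 1978 CPM (0.49 ± 0.13, adjusted p = 0.019), as was Mefv (0.32 ± 0.10, adjusted p = 0.036), which encodes pyrin. Cd180, a Toll-like receptor homologue without a signaling domain, was lower, at 1612 and 1441 against 2498 and 2425 CPM (-0.69 ± 0.10, adjusted p = 3.8e-04), as were Aim2, the sensor of cytosolic DNA (-0.65 ± 0.11, adjusted p = 7.1e-04), Bid, a linker of death receptors to mitochondria (-0.50 ± 0.10, adjusted p = 0.0032), Cd40 (-0.48 ± 0.12, adjusted p = 0.016) and the TNF receptor gene Tnfrsf1a (-0.39 ± 0.10, adjusted p = 0.012). In mock, Mefv and Peli1 were higher and Cycs and Otulin lower.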

How the data were processed

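RNA of PMs was fragmented and sequenced with and without m6A capture. The authors deposited 1 table of raw read counts on merged m6A peaks for all 16 libraries, with each peak's gene, position and annotation; the submitters' processing notes name Bowtie2 2.2.8, MACS2 2.1.2, DiffBind 2.8 and the build GRCm39. Antibody, fragmentation to short pieces and peak calling limit the table to transcripts with a peak, and whether counting used strand is not given in the sources used here. The counts are unnormalised, and input counts were summed over the peaks of each gene, a shared peak entering every gene it names. The members and the gene lists were chosen with earlier results of these data known.

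Counts were tested with edgeR 4.0.16 in R 4.3.3 (quasi-likelihood, TMM scaling, features kept by filterByExpr at its count limits of 10 per library and 15 in all), with 1 mean per genotype and treatment over the 8 input libraries, and for peaks over all 16 libraries with the change of the IP-to-input ratio as contrast. Of 4943 genes 4742 were tested and of 7069 peaks 7058. The fits were tested on simulated data. The simulated peaks had less spread between replicates than the real ones, so that test says little about the ratio comparisons. Input LPS calls needed an adjusted p below 0.05 and a log2 fold change beyond 1, input genotype calls and peak calls an adjusted p below 0.05. Named were a core list of pathway genes whatever their values, up to 5 (genotype comparisons and interaction: 10) called members in each direction whose groups did not overlap, and for peaks the 3 of lowest p in each direction. Alternatives were DESeq2 1.42.0, other scalings, no filter, peaks of 1 gene only, a 1.5-fold limit, subsets of libraries, each replicate left out and a replicate block. The authors' table holds no further measurement that was used. Promoters came from RefSeq tables of GRCm38.p6, another build than that of the peaks, so no coordinates were combined. Some genes are not reported here by name, but stay in the fits and counts.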

Additional observations from a re-analysis of the deposited data

Results flagged for a closer look

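In 3 members the LPS response of the input differed between the genotypes by the interaction test of edgeR (adjusted p below 0.05). The response of Adap-/- minus that of WT was -1.02 on the log2 scale for Tlr3 (SE 0.19, adjusted p = 0.011), -0.81 for Tlr2 (SE 0.16, adjusted p = 0.017) and -0.76 for Nfkbiz (SE 0.17, adjusted p = 0.030). In each of the 3 genes both genotypes rose with LPS in all libraries. For Tlr2 and Nfkbiz the mock libraries differed between the genotypes, and for Tlr3 the LPS libraries did. No group had more than 2 libraries of a kind, so no single library could be tested as standing apart.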

How the results depend on the processing

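The counts of members called after LPS, higher and lower together, stayed within 1.5 times of the reported ones under every alternative run. They ran from 39 to 50 in WT (44 reported) and from 35 to 49 in Adap-/- (43 reported). The split by direction was less stable. Scaling by library totals alone gave 25 higher and 15 lower in WT, against 39 and 5 reported. In Adap-/- it gave 20 higher and 15 lower, against 39 and 4. None of the called members named for an input comparison changed direction in that comparison. Core members named without a call were not covered by that count. Upper-quartile scaling moved the median of all genes to -0.32 in WT and -0.31 in Adap-/-. Between genotypes after LPS the 11 calls became 6 under DESeq2 and 3 to 15 when 1 library was left out, with 3 without WT LPS replicate 1, 7 without WT LPS replicate 2, 6 without Adap-/- LPS replicate 1 and 5 without Adap-/- LPS replicate 2. In mock the 18 calls became 7 to 20, with 7 without Adap-/- mock replicate 2 and 11 without WT mock replicate 2. The 3 interaction calls became 1 to 4, with 1 without WT LPS replicate 2, either Adap-/- mock replicate or Adap-/- LPS replicate 1. For the IP-to-input ratio, 0 member peaks passed by edgeR in all 4 comparisons, with 12, 5, 4 and 3 at the unadjusted threshold in WT LPS against mock, Adap-/- LPS against mock, the LPS groups and the mock groups. DESeq2 called 2 peaks in WT and 2 in Adap-/- after LPS, all 4 of them at Nfkbil1, and none between genotypes. Leaving out 1 library gave 0 to 3 in WT, with 3 without WT mock replicate 2. The cause of these shifts was not tested. Whether libraries of equal replicate number shared an origin was not stated. The replicate differences of 2 groups correlated at -0.08 to 0.16, highest between Adap-/- mock and Adap-/- LPS. Such weak correlations show no large shared effect but cannot decide whether the groups were paired. A replicate block gave 44 and 43 members after LPS, 8 and 18 between genotypes after LPS and in mock, 3 in the interaction, and 0 peaks in each ratio comparison, where it paired the IP and input library of a replicate. With the numbers of the WT mock IP libraries crossed, a pairing chosen after seeing the data, it gave 1 peak in WT and 1 in Adap-/- after LPS. The member peaks held a median of 183 input reads per library, with 18 of 138 peaks under 20, and no comparison had more than 2 libraries of a kind in a group.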
